A study of Mesocentrotus franciscanus with 18 samples.

Results

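Neurexin (Neurx, SPU_024416) is the gene described here, across the tissues and sizes of the red sea urchin *Mesocentrotus franciscanus*. It is 1 of 127198 Trinity groupings in the expression table, a grouping being the set of assembled transcripts counted as one gene. The grouping, TRINITY_DN38032_c0_g1, was found by its counts: it was the 1 row holding the 2 radial nerve counts of 2010 that the study lists for Neurx, and its Aristotle's lantern muscle counts summed to 363 in Small and 399 in Large animals. Neurx was chosen because it was listed for its radial nerve difference, so its radial nerve and muscle values are given as a description, and its size comparison in esophagus is the one that was tested.

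Neurexins are presynaptic adhesion proteins. In mammals they reach across the synaptic cleft to partners on the receiving cell, among them neuroligins and leucine-rich repeat proteins, and on the presynaptic side they are connected to the calcium channels and scaffolds of the active zone, where vesicles are released. Contactin-associated proteins are members of the neurexin superfamily with a similar domain arrangement. The radial nerve runs along each ambulacrum, the band that bears the tube feet, the Aristotle's lantern muscle moves the jaws, and the esophagus is a part of the gut that also carries nerves.

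The tissues were radial nerve (RN), the muscle of Aristotle's lantern (ALM) and esophagus (ES), taken from wild small (young, S) and large (old, L) animals in 2010, 2011 and 2013. Each of the 18 libraries was a pool of several animals of one tissue, size and year, which gave 3 pools for each tissue and size, named after both (RN-L for the radial nerve of Large animals). No animal received a treatment, size stood for age, and Small and Large pools held different animals. Whole tissue was used, so fewer cells of a type and less RNA per cell cannot be told apart. The libraries held 7383210 to 11547218 counts. The library names fall into series: all 3 RN-L libraries carried one prefix and RN-S 2010 and 2011 another, whereas RN-S 2013 shared its prefix with all ALM and ES libraries, so size and series cannot be told apart in RN. The titles of the RN-L libraries, and of no others, also end in the letter R. The year of each RN library was taken from its title, since a separate label of the RN samples gives 2010 for all of them. The 50 most abundant groupings took 22.6% to 26.0% of counts in RN-L and 33.7% to 44.7% in RN-S, and 48.4% in ES-L 2010 against 22.9% to 33.9% in the other ES libraries. Levels are given as CPM, counts scaled to a common library size, after TMM scaling, which assumes that most genes do not differ between libraries.

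The study designed a primer pair for Neurx and measured it by quantitative PCR. The pair is shown because it identifies the stretch of transcript that was measured. Radial nerve RNA from individual animals of the earliest collection was used. The paper reports a significant difference between Small and Large in the direction of the sequencing, for Neurx and every other gene selected. According to the paper, this RNA was also used for sequencing, so the animals were not independent of the pools. Whether the pair lies in the grouping described here was not tested. Both primers are written 5′ to 3′, and they were not placed on a genome.
Neurx forward primer: aatcccttcaccttcagaacaaaa
Neurx reverse primer: agcgtcagggctggataaga
The forward primer has 24 bases and 37.5% G and C, and the reverse primer has 20 bases and 55.0%.

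Neurx was detected in every library, and its level separated RN-L from all other groups. In RN-L the counts were 1312, 1794 and 2361 in 2010, 2011 and 2013, which corresponded to 134, 166 and 167 CPM. In RN-S the counts were 140, 241 and 155, or 13.4, 20.1 and 16.8 CPM. Every RN-L pool lay far above every RN-S pool. In ALM-S the counts were 38, 95 and 230, or 8.30, 12.7 and 26.6 CPM. In ALM-L they were 279, 38 and 82, or 25.7, 5.91 and 8.01 CPM. A single pool was high in each ALM group, ALM-S 2013 and ALM-L 2010, and the ALM groups overlapped. In ES-S the counts were 47, 61 and 32, or 4.77, 5.56 and 3.01 CPM. In ES-L they were 13, 98 and 66, or 2.07, 8.59 and 4.89 CPM. The ES-L pools spanned the whole ES-S range and held both the lowest and the highest ES value.

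**Figure D1:**
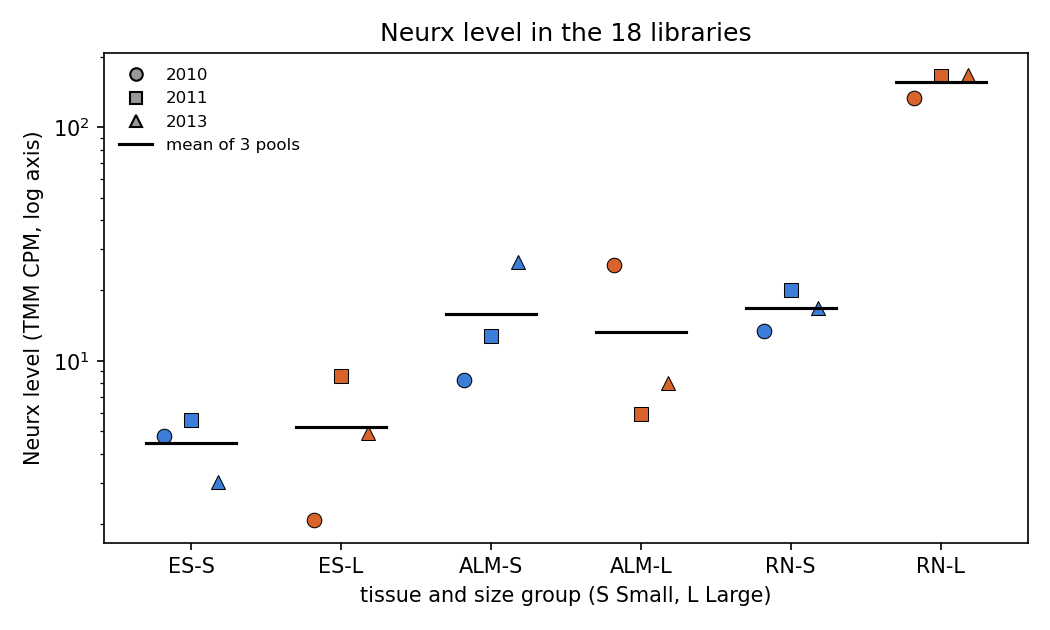
Level of Neurx (TMM CPM, log axis) in each of the 18 pooled libraries by tissue and size group, with blue for Small, orange for Large, symbols for the sampling year and a line for the mean of 3 pools. The 3 RN-L pools sit between 134 and 167 CPM, and the other 15 lie between 2.07 and 26.6 CPM.

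The group means ran, from high to low, RN-L at 156 ± 19.1 CPM, RN-S at 16.8 ± 3.33, ALM-S at 15.9 ± 9.54, ALM-L at 13.2 ± 10.9, ES-L at 5.18 ± 3.27 and ES-S at 4.45 ± 1.304 (SD, n = 3 each). Of the neighbours in this order, only RN-L and RN-S did not overlap. Each of the other neighbouring pairs overlapped, so their order did not exceed the spread between pools. The spread relative to the mean was smallest in RN-L, at 12.3%, and RN-S, at 19.9%, and reached 82.4% in ALM-L.

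In RN, Neurx was 3.13 ± 0.28 higher in Large on the log2 scale (edgeR estimate ± SE, 3 pools against 3). Taken by year, RN-L stood 9.94, 8.27 and 9.95 times above RN-S in 2010, 2011 and 2013. Scaling to library totals alone gave 13.1, 9.98 and 12.8 times. Of the 29012 groupings tested in RN, 21.7% were called (adjusted p under 0.05 and a change over 2-fold), 11.4% as higher in Large, and in 22.9% every RN-L pool lay above every RN-S pool. A larger log2 difference than that of Neurx was found for 427 of the 29012. These shares are the background of a contrast from which Neurx was chosen, and nothing is read from them. With RN-S reduced to its 2013 pool, the library that shares the ALM and ES series, the difference was 3.08 ± 0.46, where the 1 RN-S pool is assumed to vary like those of RN-L.

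In ES, the comparison that was free of the choice, Neurx did not differ detectably with size. The log2 difference of ES-L from ES-S was 0.33 ± 0.55 (SE), with a 95% interval of -0.93 to 1.58 and an adjusted p of 0.955 by edgeR's quasi-likelihood test, and Large was higher in 2 of 3 years. Over all 30159 groupings tested in ES, 0.00332% were called. ES-L 2010, the pool with 13 Neurx counts, decided much of this value: without it the difference was 0.67 ± 0.39 with an adjusted p of 0.370, and without ES-L 2011 it was -0.22 ± 0.56 with an adjusted p of 0.954. Adjusted p ranged from 0.370 to 0.99996 over all 12 alternatives. The interval reaches from a fall of nearly 2-fold to a rise well over 2-fold. Whether the size difference in ES differs from that in RN was not tested.

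In ALM, the log2 difference was -0.25 ± 0.64, with a 95% interval of -1.70 to 1.20. The years went in opposite directions, since Large was 3.10 times Small in 2010, whereas Small was 2.15 and 3.32 times Large in 2011 and 2013. Leaving out ALM-L 2010 moved the difference to -1.22 ± 0.55, leaving out ALM-S 2013 moved it to 0.37 ± 0.69, and leaving out both gave -0.62 ± 0.48. The direction in ALM thus followed single pools. Over all 24482 groupings tested in ALM, 0.00408% were called.

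**Figure D2:**
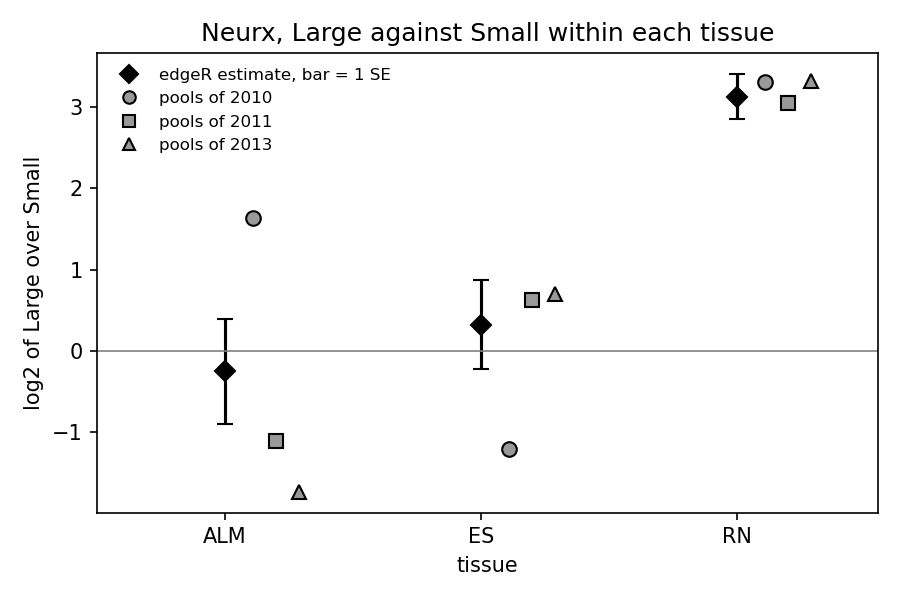
Difference of Neurx between Large and Small within each tissue (log2, above 0 is higher in Large), with the edgeR estimate and 1 SE as a black diamond and the ratio of the pools of each year in grey. The 3 RN years lie close together above 3, and the ALM and ES years fall on both sides of 0.

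Tissues were set side by side within each size, as unpaired groups. In Small animals Neurx in RN was 1.92 ± 0.56 above ES (log2, 18-library fit) and the groups did not overlap, whereas RN-S and ALM-S differed by 0.08 ± 0.54 and overlapped. ALM-S stood 1.83 ± 0.56 above ES-S, without overlap. In Large animals RN was 4.89 ± 0.63 above ES and 3.56 ± 0.59 above ALM, without overlap in either case. The RN-L libraries carried a name series that no ALM or ES library shared, so tissue and series cannot be told apart there. ALM-L stood 1.33 ± 0.55 above ES-L, and these groups overlapped. The share of all groupings whose pools separated between tissues in this way was not counted. Nothing is therefore read from the lack of overlap between tissues, here or below. Within the shared name series, the RN-S 2013 pool held 16.8 CPM, the ES-S 2013 pool 3.01 and the ALM-S 2013 pool 26.6, so that in this year muscle exceeded nerve among Small pools. Restricted to that series, where RN-S is 1 pool assumed to vary like the ALM and ES pools, it stood 1.93 ± 0.83 above ES-S and 0.10 ± 0.88 above ALM-S.

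Markers of nerve, muscle and skeleton-forming cells moved with size in the RN libraries. The nerve markers, 7 of 7 linked, comprise the transmitter genes Th, Dbh_1, Gad and Slc5a7_1, the glycine transporter Glyt_3, the peptide-processing enzyme CbpdEL_1 and the neurotrophin receptor Trk. Their summed level ran from 113 to 136 CPM across the Small RN pools and from 416 to 667 CPM across the Large ones, with none at 0 in any RN library. The muscle markers, 7 linked of 9, summed to 92032 to 220352 CPM (RN-S) against 3438 to 7560 CPM (RN-L). The 7 genes used as skeletal markers gave 89.0 to 278 CPM (RN-S) against 3.05 to 21.3 CPM (RN-L). The 6 linked cilia genes of 7 gave 125 to 210 CPM (RN-S) against 41.6 to 71.6 CPM (RN-L). The nerve, muscle and skeletal markers were linked through the study's list of RN changes, and the part of these markers in the Neurx difference was not tested. Set against the nerve sum of the same library, the Neurx level was 11.9% to 15.9% of that sum for Small RN pools and 25.1% to 32.1% for Large ones, a description, since Neurx and these markers were all listed for their RN change.

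Muscle markers summed to 182038 to 478975 CPM in ALM against 8665 to 22228 in ES, and the RN-S 2010 pool, at 220352 CPM, lay within the ALM range. Nerve markers were highest in RN. In ALM the nerve sum was 8.55 to 26.8 CPM against 24.8 to 50.5 in ES, where the ALM-S 2013 pool alone reached the ES range, and every ALM-S pool held more Neurx than every ES-S pool. Between 1 and 4 of the 7 nerve markers were at 0 counts in every ALM library. The pools with the highest Neurx in ALM, ALM-S 2013 and ALM-L 2010, also held the highest nerve sums there, 26.8 and 20.9 CPM against 8.55 to 14.9 in the other 4. These sums were mostly Glyt_3, at 12.8 and 7.84 CPM, and CbpdEL_1, at 12.6 and 11.6 CPM, while Th, Dbh_1 and Gad were at 0 in ALM-L 2010. Glyt_3 was no higher in RN-S, at 6.25 to 6.62 CPM, than in several ALM pools, and CbpdEL_1 was at 2.33 to 5.22 CPM in the other 4 ALM pools. Skeletal markers separated all ALM-S pools, at 200 to 348 CPM, from all ALM-L pools, at 25.4 to 41.5. Over the 12 ALM and ES libraries, Pearson's r of log2 CPM with Neurx ran from -0.70 to 0.11 for the nerve markers. It ran from 0.42 to 0.77 for muscle markers, 0.51 to 0.69 for skeletal markers and 0.42 to 0.82 for cilia genes. These values mix differences between tissues with those between pools. The part of nerve content in the ALM spread was not tested.

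**Figure D3:**
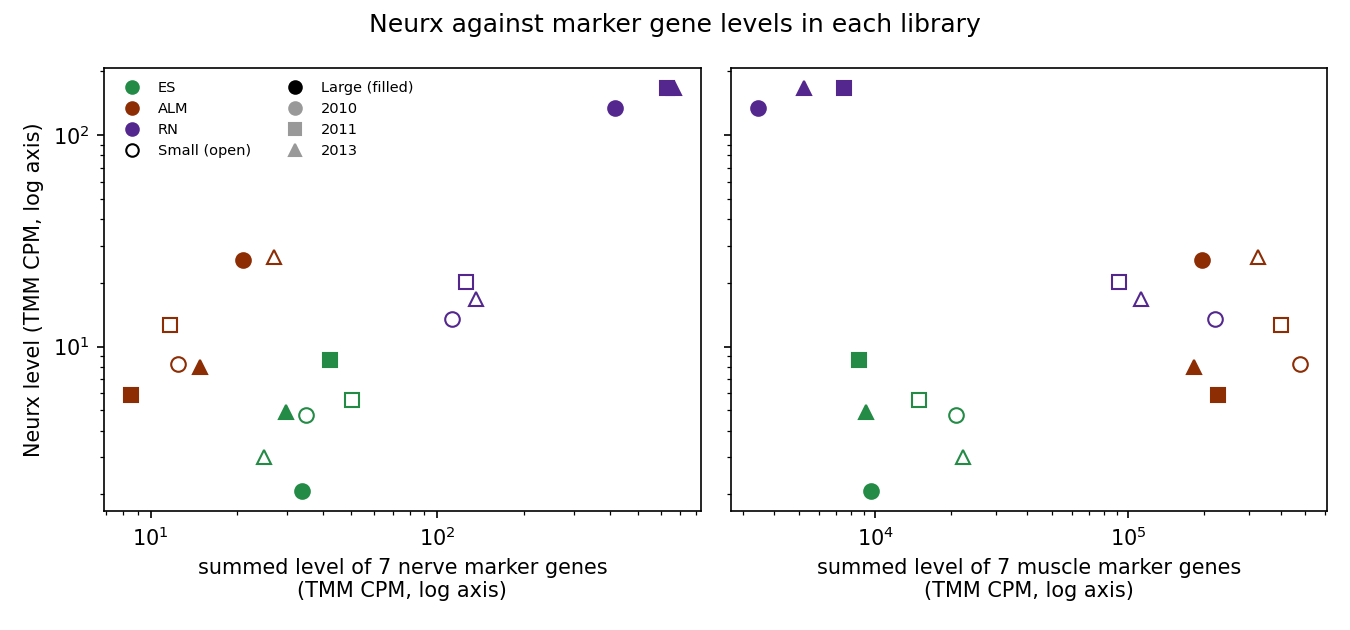
Level of Neurx against the summed level of 7 nerve markers (left) and 7 muscle markers (right) in each library (TMM CPM, log axes), with colour for tissue, open symbols for Small and filled for Large. RN-L lies at the highest nerve sums and the lowest muscle sums, and the ALM-S pools hold more Neurx than the ES-S pools.

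The neighbouring synaptic genes were described from a list of 25, of which 23 could be linked to groupings through counts the study lists. The 2 neurexin superfamily members, Cntnap4L_2 and Cntnap2L_2, were linked through the ALM and ES lists. They were thus chosen by their counts in ALM or ES and selected on a listed size change there. The other linked genes were selected on a listed RN change, and these 2 were not linked through the RN list. A lack of change in RN was therefore favoured by how they were chosen. Neither followed Neurx in RN, and nothing is read from this. Cntnap4L_2 held 656, 465 and 389 CPM in RN-S and 93.4, 409 and 494 CPM in RN-L, groups that overlapped, and its log2 difference was -0.68 ± 0.54 (adjusted p = 0.383, edgeR). Cntnap2L_2 held 22.5, 13.2 and 17.7 CPM in RN-S and 16.6, 14.1 and 25.6 CPM in RN-L, with a log2 difference of 0.00 ± 0.33 (adjusted p = 0.997, edgeR). Each had been listed by the study for size in another tissue. In ALM, Cntnap4L_2 held 43.9, 56.2 and 33.6 CPM in Small and 11.7, 6.37 and 6.06 CPM in Large. In ES, Cntnap2L_2 held 5.17, 3.37 and 3.11 CPM in Small and 15.8, 17.8 and 46.7 CPM in Large. Neither pair of groups overlapped, and over all groupings tested 5.86% lay lower without overlap in ALM-L and 5.26% higher without overlap in ES-L.

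The other 21 linked genes were taken from the study's RN list, so their RN values are a description. Among 22 list genes tested in RN, 19 were called as higher in Large and 0 as lower by edgeR, against 11.4% and 10.3% of all groupings, with a median log2 difference of 2.96 against -0.04 for all. The exceptions were both neurexin relatives, which were not linked through the RN list, and Nlgn4yL, a neuroligin. Nlgn4yL held 0.00, 0.67 and 0.00 CPM in RN-S and 2.85, 1.39 and 2.69 CPM in RN-L. Its log2 difference was 3.13 ± 1.01, with an adjusted p of 0.058 by edgeR. Lphn3, a latrophilin, did not pass the low-count filter of the edgeR fit. DESeq2, run without that filter, called 21 list genes in RN, beside 6772 of all 35847 groupings tested. Nlgn4yL (3.29 ± 1.16, adjusted p = 0.029, DESeq2) and Lphn3 (5.21 ± 1.61, adjusted p = 0.010, DESeq2) were among the 21.

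Among adhesion genes, Lrrtm2, a leucine-rich repeat protein that binds neurexin in mammals, held 0.96, 0.92 and 1.95 CPM in RN-S and 11.9, 18.7 and 19.1 CPM in RN-L, a log2 difference of 3.62 ± 0.43. Mdga2, whose mammalian counterpart binds neuroligin, held 5.76, 7.67 and 4.22 CPM in RN-S and 55.6, 52.3 and 41.7 CPM in RN-L, a difference of 2.998 ± 0.32. Celsr1, a flamingo-type cadherin, held 4.51, 3.92 and 2.71 CPM in RN-S and 32.9, 30.7 and 24.6 CPM in RN-L, a difference of 2.90 ± 0.31. In all 3, every RN-L pool exceeded every RN-S pool, as in 22.9% of all groupings tested, and nothing is read from this, since the genes were listed for RN. Of the presynaptic organizers, the active zone regulator Syde and the scaffold Ppfia (liprin-alpha) differed by 3.36 ± 0.31 and 3.29 ± 0.28, and Cacna2d2, an alpha2/delta calcium channel subunit, by 3.14 ± 0.36. Pclo, the active zone scaffold piccolo, held 7.29, 9.92 and 7.91 CPM in RN-S and 50.3, 32.9 and 42.4 CPM in RN-L, a difference of 2.24 ± 0.30. In ES its Large pools, at 3.19, 2.72 and 1.93 CPM, all lay below its Small pools, at 6.90, 5.01 and 3.48 CPM, as did 9.06% of all groupings tested there, and its difference of -0.90 ± 0.43 did not pass the test (adjusted p = 0.664, edgeR). Of the vesicle release genes, Cadps, an activator of calcium-dependent secretion, held 1.63, 2.17 and 1.62 CPM in RN-S and 13.6, 27.9 and 23.8 CPM in RN-L, a difference of 3.49 ± 0.38. The 8 genes grouped under vesicle release, which include the trans-Golgi syntaxin Stx6, ranged from 2.17 to 3.49. Agrin, an organizer of the vertebrate neuromuscular junction, and the receptor-like MuskL differed by 3.64 ± 0.47 and 2.38 ± 0.27.

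Outside RN, no list gene passed the test in the edgeR fit to the 6 libraries of the tissue. In ALM, 0 of 11 tested list genes were called (0.00408% of all groupings), 8 were lower in Large, and the median log2 difference was -0.64 against 0.01 for all. Unadjusted p was under 0.05 for 2 of them, against 6.87% of all groupings. They were Cntnap4L_2 and Celsr1, both also on the study's ALM list, and DESeq2 called the same 2. In ES, 0 of 15 were called (0.00332% of all), with a median of -0.02 against 0.06 for all. Unadjusted p was under 0.05 for 2, Cntnap2L_2 and Celsr1, against 8.08% of all groupings, and DESeq2 called Cntnap2L_2. Without ES-L 2010, edgeR called 3 list genes in ES, Cntnap2L_2 (3.16 ± 0.47), Celsr1 (3.43 ± 0.54) and Cadps (-1.74 ± 0.29), and called 876 groupings rather than 1. Celsr1, the adhesion gene tested in all 3 tissues, had a positive size difference in each, at 2.60 ± 0.64 in ALM and 2.96 ± 0.86 in ES, and neither of these passed the adjusted test with all libraries (adjusted p = 0.237 and 0.425, edgeR).

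**Figure D4:**
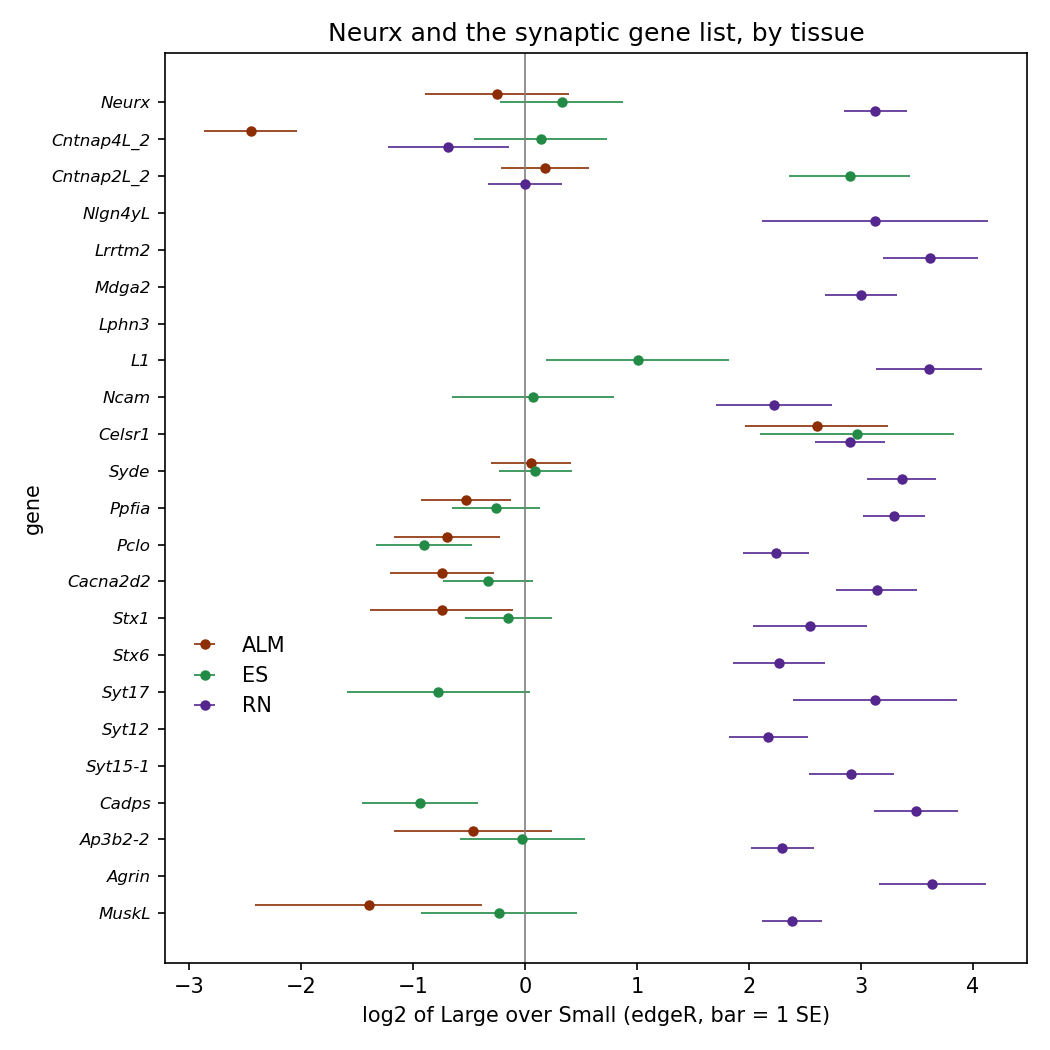
Log2 difference between Large and Small for Neurx and synaptic list genes in ALM, ES and RN (edgeR estimate, bar of 1 SE), with genes too low to be tested in a tissue left blank. In RN every list gene shown with a value lies above 2 except the neurexin relatives, which were not linked through the RN list. These relatives, Cntnap4L_2 and Cntnap2L_2, lie at -0.68 and 0.00.

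The patterns most like that of Neurx were ranked by Pearson's r of log2 CPM over the 18 libraries, which share tissues, sizes and name series. The median r over 39511 groupings was -0.05, and 168 of them (0.425%) exceeded 0.9. The closest was the unnamed grouping TRINITY_DN15804_c1_g1, with r = 0.98 over 18 libraries and 0.92 over the 12 ALM and ES libraries alone. These 12 were part of the ranking, so r over them is not independent of it. The closest linked gene was Fbxl16, an F-box protein gene, with r = 0.96 over 18 libraries and 0.92 over the 12, and its mean level was 132 CPM in RN-L, 23.2 in RN-S and at most 8.61 in the other groups. Cpn2L, the ubiquitin-activating enzyme gene Uba1, the serotonin receptor gene Htr1a and the kinesin light chain gene Klc followed, with r of 0.94 to 0.95 over 18 libraries and 0.71 to 0.83 over the 12. Among the list genes, Stx6, a syntaxin of the trans-Golgi, was closest over 18 libraries (r = 0.91), and Pclo was closest over the 12 (r = 0.81). Over the 12, r was below 0 for most list genes and reached -0.77 for Cadps. Cntnap4L_2 and Cntnap2L_2 had r of 0.41 and 0.35 over 18 libraries. All linked genes named here except these 2 were listed by the study for RN, so a rise in RN-L is shared by choice.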

How the data were processed

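RNA pooled by tissue, size and year was sequenced as cDNA libraries. Per the labels and the study's methods, the authors trimmed the reads (Trimmomatic 0.38), assembled the transcripts with Trinity, aligned with Bowtie2 2.3.4 and deposited RSEM expected counts for each Trinity grouping, whole numbers as deposited. The deposited columns were assigned to samples by title. Counts the study prints for named genes were matched to rows, exactly or to at least 95% of the counts, to link 901 genes, 99 of them to a summed pair of rows, leaving 127099 features. Sequences of transcripts and genome positions were not used here.

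Each tissue's 6 libraries were fitted in edgeR 4.0.16 (R 4.3.3; default low-count filter, TMM, quasi-likelihood test, Benjamini-Hochberg adjustment over all features). Tissue differences came from 1 fit to all 18 libraries. SE is the log2 difference divided by the square root of F. Calls needed adjusted p under 0.05 and a log2 change over 1. Likeness used log2(CPM + 1). Alternatives were DESeq2 1.42.0 and its size factors, no scaling, no filter, year as a block, each library left out and all libraries in one fit. The script was tested on simulated counts.

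Named genes were Neurx, the gene list, and the 5 features and 5 linked genes of highest r. The values of 1 list gene are not reported here; it is included in the counts over the list. The members and lists were chosen with earlier results of these data known. Pools were the replicates, so p-values measure the spread between pools. Library totals ranged from 7383210 to 11547218, and the lowest Neurx count was 13, with a 95% exact Poisson interval of 6.92 to 22.2 that covers counting error only.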

Additional observations from a re-analysis of the deposited data

Results flagged for a closer look

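Pclo, the active zone scaffold piccolo, had log2 size differences of opposite sign in RN and ES. In RN its log2 difference of Large from Small was 2.24, and every Large pool (32.9 to 50.3 CPM) exceeded every Small pool (7.29 to 9.92 CPM). In ES the difference was -0.901, and every Large pool (1.93 to 3.19 CPM) lay below every Small pool (3.48 to 6.90 CPM). In ALM the difference was -0.70 ± 0.48 (SE, adjusted p = 0.963, edgeR). There the Small pools held 22.9 to 58.4 CPM and the Large pools 15.2 to 38.6 CPM. The difference between the tissues was not tested, the ES value did not pass the adjusted test (edgeR, adjusted p = 0.664), and 9.06% of all groupings tested in ES lay lower in Large without overlap. Pclo was summed from 2 groupings and was listed by the study for RN.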

How the results depend on the processing

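Neurx in RN was higher in Large under every alternative run; scaling to totals alone gave 3.54, and leaving out single libraries gave 2.95 to 3.28. In ES the range without single libraries was -0.22 to 0.67, and in ALM -1.22 to 0.37; totals alone turned the ALM value to 0.07. Between tissues, totals alone gave 0.73 for RN-S against ALM-S and 1.14 for ALM-S against ES-S, and put the median size difference of all groupings at 0.35 in ALM and 0.38 in RN, against 0.01 and -0.04 with TMM. Leaving out single libraries gave 1.70 to 2.11 for RN-S against ES-S, -0.21 to 0.69 for RN-S against ALM-S, 1.23 to 2.13 for ALM-S against ES-S, 4.51 to 5.43 for RN-L against ES-L, 3.19 to 4.48 for RN-L against ALM-L and 0.39 to 1.88 for ALM-L against ES-L.

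Counts of called groupings moved more. Without the filter they were 771 in ALM, 1765 in ES and 9528 in RN, and by DESeq2 342 in ALM and 402 in ES, against 1, 1 and 6289. In the fit to all 18 libraries they were 114 in ALM and 40 in ES, and with totals alone 0 in ALM and 0 in ES. Without single libraries they ran from 0 to 9 in ALM, 0 to 876 in ES and 2379 to 6655 in RN. Totals alone split the RN calls into 5163 higher and 1495 lower, against 3305 and 2984. List genes called were 2 in ALM and 2 in ES without the filter, 2 in ALM and 1 in ES by DESeq2, 1 in ES in the fit to all libraries, and 0 in ALM, 0 to 3 in ES and 16 to 19 in RN without single libraries. Chosen after seeing the data, leaving out ALM-S 2013 and ALM-L 2010 gave 0 calls in ALM (1858 at an unadjusted p under 0.05), and reducing RN-S to 2013 gave 0 calls and 0 list genes in RN (7384 at an unadjusted p under 0.05), with 1 pool assumed to vary like the 3 of RN-L.

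With sampling year as a replicate block, Neurx differed by 0.18 in ES (adjusted p = 0.984, edgeR), and calls were 0 in ALM, 0 in ES and 3818 in RN. Small and Large libraries of a year held different animals from the collection of that year. The correlation of their deviations ran from -0.58 to 0.36, and 2 of the 9 Small libraries correlated best with the Large library of their own year. Per the study's methods, the tissues were dissected from the same collected animals, so tissue pools of a given size and year are matched. The block moved no tissue difference beyond the spread between pools. It is shared by Small and Large, so it does not model this matching, whose effect was not tested. In ES, 13 to 98 counts and 3 pools a group limit what could be detected.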
